A study of Mus musculus with 12 samples.

Results

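The genes described here encode the nuclear parts of the mitochondrial respiratory chain and ATP synthase. They are the protein-coding rows of the count table whose mouse symbol begins with Nduf, Uqcr, Atp5 or Sdh, the last followed by a, b, c or d, or is Cox4 to Cox8 with an isoform suffix. Of 46078 genes in the table, 97 protein-coding genes fitted these names, and the 92 of them with 10 or more counts in at least 3 of 12 columns are the members. The other 5 were Ndufaf8, Cox6b2, Cox7b2, Cox8b and Cox8c. Just inside this limit, Cox6a2 reached 10 counts in 4 columns, and just outside it Ndufaf8 reached 10 counts in 1 column. By role, the members comprised 7 core subunits, 29 accessory subunits and 7 assembly factors of complex I, 8 genes of complex II of which 4 encode assembly factors, 8 genes of complex III, 16 of complex IV and 17 of ATP synthase. All 92 passed the filter on low counts and were tested.

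The samples were 12 pools of RNA from ventrolateral spinal cord white matter of C57Bl6 mice, cut out by laser capture. Each pool held tissue of 5 mice, and each of 4 groups had 3 pools. Young mice were 6 weeks old and middle-aged mice 8 months old, and at both ages naive mice were set against mice taken 72 h after lysolecithin, a detergent that strips myelin, was injected into the white matter. No vehicle-injected group was analysed here, so needle injury and demyelination cannot be told apart. The RNA was amplified before sequencing.

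Complex I (NADH dehydrogenase) and complex II (succinate dehydrogenase) pass electrons from nutrients to ubiquinone, complex III carries them on to cytochrome c, and complex IV (cytochrome c oxidase) gives them to oxygen. Complexes I, III and IV pump protons as they do so, and ATP synthase uses the returning protons to make ATP. All of complex II and most subunits of the others are nuclear genes, while a small set of subunits is encoded by the mitochondrial genome. In white matter the chain serves axons, oligodendrocytes, astrocytes and immune cells alike, and activated macrophages are known to rely more on glycolysis.

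Each pool yielded 9834447 to 12807437 counts. The 92 genes together took 0.49% to 0.53% of the counts in the 6 injured pools and 0.58% to 0.68% in 5 of the 6 naive pools. Pool 2 of the middle-aged naive mice stood apart, with 1.03%. Of the 92 members, 63 had their highest CPM of all 12 pools there, whereas 16.5% of all tested genes did. Results of named genes called in middle-aged mice are also given without it where that ended the call or moved the value by over 1.5 times. Values called CPM are counts relative to library size, scaled by TMM factors, which align the libraries on their shared genes. A log2 fold change is injured over naive, or middle-aged over young, with its standard error (SE) from edgeR's quasi-likelihood test, and a gene was called changed at an adjusted p under 0.05.

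Promoters of these genes are known to carry sites for NRF1, ETS factors such as GABP, and YY1. For each of the 3 motifs searched, a member that fell at both ages and a member that passed no test are shown, since the same motif was present in both. They are from RefSeq (GRCm38.p6), on the strand of the gene, with the motif in capitals. For NRF1 (the 10 letters in capitals) the 250 bases before the start of Cox6a1, which fell at both ages, lie at chr5:115348959-115349208 (minus strand), and those of Atp5g2, which passed no test, at chr15:102671048-102671297 (minus strand). For the ETS motif (CCGGAAGT) the 250 bases before the start of Uqcrh, which fell at both ages, lie at chr4:116075071-116075320 (minus strand). Only 30 bases around the match are shown where it lies across or after the start, for Cox8a with an ETS match at chr19:7217604-7217633, and with YY1 (AAGATGGC) for Atp5j2, which fell at both ages, at chr5:145191500-145191529, and for Atp5f1 (Atp5pb in RefSeq), which passed no test, at chr3:105959248-105959277, all on the minus strand of the chromosome. In Uqcrh, Cox8a and Atp5f1 the capitals are the reverse complement of the motif.
Cox6a1: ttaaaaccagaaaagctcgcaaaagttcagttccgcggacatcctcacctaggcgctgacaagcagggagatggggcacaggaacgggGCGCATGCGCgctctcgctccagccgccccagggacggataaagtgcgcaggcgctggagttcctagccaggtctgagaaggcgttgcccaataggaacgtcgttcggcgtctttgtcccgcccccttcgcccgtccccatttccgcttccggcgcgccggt
Atp5g2: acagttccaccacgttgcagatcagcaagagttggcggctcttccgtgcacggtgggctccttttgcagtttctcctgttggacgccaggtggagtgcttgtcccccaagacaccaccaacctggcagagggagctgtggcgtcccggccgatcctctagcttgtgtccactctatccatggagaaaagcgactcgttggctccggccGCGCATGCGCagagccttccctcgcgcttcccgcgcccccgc
Uqcrh: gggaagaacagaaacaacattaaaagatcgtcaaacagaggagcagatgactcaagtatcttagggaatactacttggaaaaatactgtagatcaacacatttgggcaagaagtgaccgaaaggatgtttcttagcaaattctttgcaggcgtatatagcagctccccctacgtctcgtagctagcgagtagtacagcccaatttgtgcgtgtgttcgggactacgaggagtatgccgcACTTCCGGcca
Cox8a: atttccgaaatACTTCCGGctcgggcgtcc
Atp5j2: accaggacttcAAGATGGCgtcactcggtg
Atp5f1: atgtgcgagcgGCCATCTTgctcctgcccc

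The first question was how the respiratory chain genes stood in the lesion compared with intact white matter. After injury many were lower and few higher at both ages. In young mice, 41 of the 92 were called lower and 0 higher, where 26.3% of all 15866 tested genes were lower and 28.3% higher (54.6% either way). In middle-aged mice, 51 were lower and 2 higher, where 29.3% and 29.2% of all tested genes were (58.5% either way). The 2 higher were Uqcr10 and Cox6a2, and Cox6a2 became a member only through injured pools. The median log2 fold change of the members was -0.49 in young and -0.52 in middle-aged mice, which is a median fold of 0.71 and 0.70, while the median of all tested genes was 0.00 and -0.03. All 3 injured pools lay below all 3 naive pools for 59 members in young mice (32.2% of all tested genes) and for 53 in middle-aged mice (29.7%).

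Of the members, 35 were called lower at both ages, which is 85.4% of the list lower in young and 68.6% of the list lower in middle-aged mice. The share of all tested genes lower at both ages was not computed, and cannot exceed the 26.3% lower in young mice. In 79 of 92 the log2 fold change was negative at both ages. Across the 92 genes the changes at the 2 ages, which come from different pools, had a Spearman rho of 0.71 and a Pearson r of 0.38, over all members, the weakly expressed Cox7a1 and Cox6a2 included. These are descriptions across genes, which are not independent replicates. The overlap of the lists, the signs and the correlation were not computed for all tested genes, so they are not shown to be particular to the members. Without pool 2 of the middle-aged naive mice, 39 members were lower and 4 higher after injury in middle-aged mice, with a median of -0.35. Of the 53 calls in middle-aged mice 12 were lost without it, those of Ndufa11, Ndufb5, Ndufb6, Ndufs6, Ndufs8, Ndufaf5, Cox6b1, Cox7a2, Ndufa4, Atp5c1, Atp5k and Atp5o. The count in young mice was then 54. Of all tested genes 59.6% were then called in young and 59.3% in middle-aged mice, either way. With libraries scaled by their totals alone 25 members were lower in young mice, and with offsets for the GC content and length of transcripts 75. The median of all tested genes in young mice was then 0.20 and -0.26, and that of the members -0.30 and -0.84. Of all tested genes 54.3% and 58.6% were called either way.

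**Figure D1:**
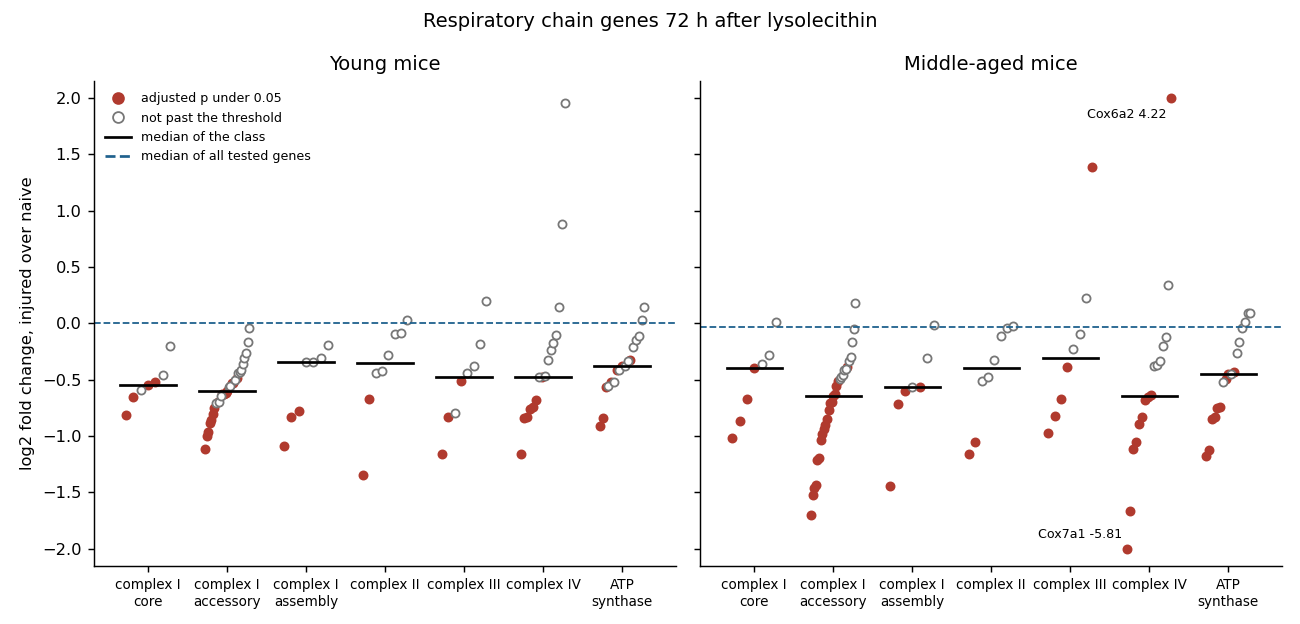
Log2 fold change of each of the 92 members after injury, by class, in young (left) and middle-aged mice (right). Filled points passed an adjusted p of 0.05 in edgeR's quasi-likelihood test, black lines are class medians, and the dashed line is the median of all tested genes. Points beyond 2 on the log2 scale are drawn at the edge with their value. Class medians lie below the dashed line in every class at both ages.

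**Figure D2:**
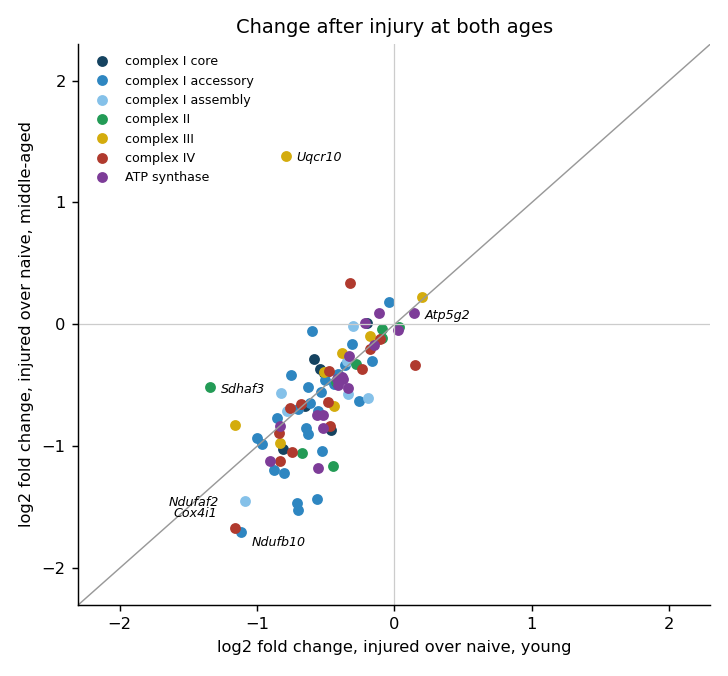
Log2 fold change after injury in middle-aged mice (vertical) against that in young mice (horizontal) for 90 members, coloured by class, with the line of equality. Cox6a2 and Cox7a1 lie outside the axes, and most points lie below 0 on both axes, with Uqcr10 the member furthest from that corner.

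The complexes did not stand at the same level after injury. When the CPM of all subunits of a complex were divided by transcript length and summed, assembly factors left out, complex IV in young injured mice stood at 58.2% ± 4.18 (SD, n = 3) of the young naive mean and complex III at 59.1% ± 2.43. Complex I stood at 64.3% ± 2.98, ATP synthase at 78.8% ± 1.85 and complex II at 84.9% ± 6.19. In each of the 5 the 3 young injured pools lay below the 3 young naive pools. In middle-aged injured mice the values, again as a percentage of the young naive mean, were 65.3% ± 2.36 for complex IV, 67.6% ± 2.57 for complex I, 73.9% ± 8.26 for complex III, 82.5% ± 1.92 for ATP synthase and 91.1% ± 1.66 for complex II. In middle-aged naive mice the spread was far wider, from 93.8% to 163% for complex I and from 109.6% to 214% for complex IV, with pool 2 at the top in all 5. These sums give most weight to abundant genes: Cox4i1 made up 46.3% of complex IV and Uqcrh 73.3% of complex III in young naive mice. By the median over subunits, which weighs each gene alike, the order was another: 66.4% ± 1.67 for complex I, 69.99% ± 7.07 for complex IV, 72.6% ± 6.17 for complex III, 78.1% ± 1.81 for ATP synthase and 88.1% ± 7.83 for complex II in young injured mice. Between complexes the differences are descriptions, since no test was made of a sum over genes.

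**Figure D3:**
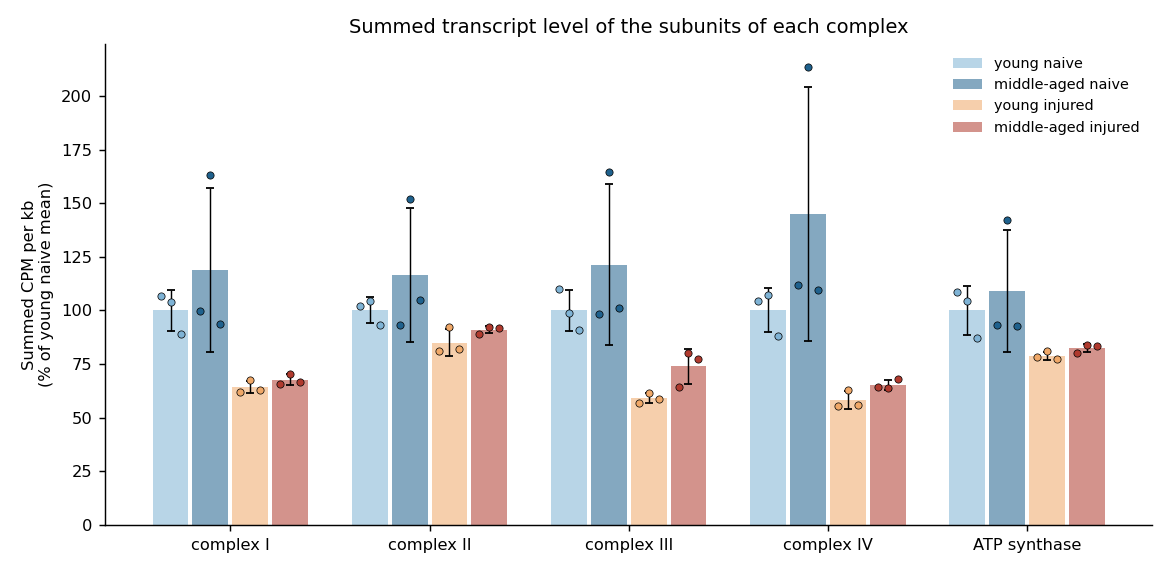
Summed CPM per kilobase of the subunits of each complex, as a percentage of the young naive mean, in the 4 groups. Points are pools (1 to 3 from left to right), bars are means and error bars SD (n = 3). Injured pools lie between 55.6% and 92.3%, and middle-aged naive pool 2 lies highest for every complex.

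Complex I core subunits carry the flavin and iron-sulphur centres that hold the electrons. Of 7, 4 were lower in young and 4 in middle-aged mice. That is 57.1% at each age, against 26.3% and 29.3% of all tested genes. Ndufv1 (ENSMUSG00000037916, chromosome 19, 4007384 to 4012806 in GRCm38), which binds NADH, read 63.4, 60.3 and 66.3 CPM in young naive and 35.9, 37.4 and 35.1 in young injured pools, and 62.4, 79.3 and 59.2 and 33.4, 35.6 and 29.96 in the middle-aged pools. Every injured pool lay below every naive pool, and the log2 fold changes were -0.81 ± 0.13 (SE, adjusted p = 0.000134) and -1.02 ± 0.13 (adjusted p = 1.46e-05). Ndufs1, the largest iron-sulphur subunit, fell from 206, 186 and 155 CPM to 107, 120.5 and 121 CPM in young mice, with log2 fold changes of -0.65 ± 0.12 in young and -0.67 ± 0.12 in middle-aged mice (adjusted p = 0.000341 and 0.000244). At the other end, Ndufs3, an iron-sulphur fragment subunit, read 40.4, 34.4 and 30.4 CPM in young naive and 30.98, 29.3 and 31.5 in young injured pools. These pools overlapped, and its log2 fold changes of -0.20 ± 0.16 and 0.01 ± 0.16 passed no test. Ndufs7, the least abundant core gene, had log2 fold changes of -0.59 ± 0.39 and -0.28 ± 0.40 and likewise passed no test. Ndufs8 was called lower in middle-aged mice (-0.87 ± 0.28, adjusted p = 0.0158), where pool 2 of the naive mice read 60.1 CPM against 23.5 and 30.1 in the others. The call was lost without pool 2 (-0.37, adjusted p = 0.112) and without middle-aged injured pool 3 (-0.80).

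Accessory subunits of complex I, which surround the core, are the largest class. Of 29, 15 (51.7%) were lower in young and 19 (65.5%) in middle-aged mice, and 0 were higher. Of all tested genes 26.3% and 29.3% were lower. Ndufb10 (ENSMUSG00000040048, chromosome 17, 24722060 to 24724478) lay lowest of the class. It read 124, 132 and 109 CPM in young naive, 53.00, 59.5 and 55.6 in young injured, 125, 324 and 117 in middle-aged naive and 56.8, 57.9 and 59.2 in middle-aged injured pools. The 6 injured pools lay within 53.0 to 59.5 CPM, all below the naive pools, and pool 2 alone stretched the middle-aged naive range. The log2 fold changes were -1.12 ± 0.29 (adjusted p = 0.00429) and -1.70 ± 0.29 (adjusted p = 0.000165), and -1.06 in middle-aged mice without pool 2 (adjusted p = 1.56e-06).

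Ndufa12 and Ndufa13 were the other members of this class with the lowest mean change, and the size of both changes depended on that pool. Ndufa12 read 79.5, 207 and 67.8 CPM in middle-aged naive and 41.4, 42.9 and 44.2 in middle-aged injured pools, a log2 fold change of -1.46 ± 0.31 that became -0.78 without pool 2 (adjusted p = 0.00094 and 0.000122). Ndufa13 read 10.5, 32.6 and 9.602 and 5.98, 6.95 and 5.27 CPM, a change of -1.52 ± 0.39 that became -0.72 (adjusted p = 0.0035 and 0.0121). In young mice neither passed the test (adjusted p = 0.0646 and 0.144), although their 3 injured pools lay below the naive ones. Among the others, Ndufa6 (-0.80 ± 0.19 and -1.22 ± 0.19) and Ndufb9 (-0.88 ± 0.21 and -1.19 ± 0.21) fell at both ages. Accessory genes with overlapping pools at both ages included Ndufa7 (-0.04 ± 0.23 and 0.18 ± 0.23), Ndufab1, which encodes the mitochondrial acyl carrier protein (-0.17 ± 0.19 and -0.30 ± 0.19), and Ndufa1 (-0.31 ± 0.25 and -0.16 ± 0.25), with no call.

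Assembly factors of complex I are not part of the finished enzyme. Of 7, 3 were lower in young and 4 in middle-aged mice, 42.9% and 57.1% against 26.3% and 29.3% of all tested genes. Ndufaf2 read 39.8, 51.6 and 36.99 CPM in young naive and 21.4, 21.01 and 17.9 in young injured pools, and 45.8, 104 and 44.5 and 22.7, 25.3 and 23.1 at middle age. Injured pools lay below naive pools at both ages, with log2 fold changes of -1.09 ± 0.27 (adjusted p = 0.00334) and -1.45 ± 0.27 (adjusted p = 0.000356; -0.93 without pool 2). Most exon bases of Ndufaf2 overlap another gene on the opposite strand, and reads there cannot be told apart without strand. The part of this overlap in the fall of Ndufaf2 was not tested. Ndufaf1 fell with log2 fold changes of -0.83 ± 0.15 and -0.56 ± 0.15, and Ndufaf5 with -0.78 ± 0.24 and -0.71 ± 0.24. The calls of Ndufaf5 were lost without young naive pool 1 or 2 (-0.67 and -0.69), middle-aged naive pool 2 or 3 (-0.61 and -0.65) or middle-aged injured pool 3 (-0.57). Ndufaf3 (-0.35 ± 0.19 and -0.30 ± 0.19) and Ndufaf4 (-0.30 ± 0.21 and -0.02 ± 0.22) passed no test.

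In complex II 2 of 8 genes were lower at each age, 25% against 26.3% of all tested genes in young and 29.3% in middle-aged mice. Sdha (ENSMUSG00000021577, chromosome 13, 74322254 to 74350280), the flavoprotein that oxidises succinate, read 273, 266 and 252 CPM in young naive, 167, 170.1 and 159 in young injured, 261, 456 and 299 in middle-aged naive and 161, 158 and 170.2 in middle-aged injured pools. The injured pools lay below the naive pools at both ages, with changes of -0.67 ± 0.16 (adjusted p = 0.00259) and -1.05 ± 0.16 (adjusted p = 6.1e-05; -0.78 without pool 2). The membrane anchors Sdhc and Sdhd were the opposite case. Sdhd (ENSMUSG00000000171, chromosome 9, 50596357 to 50603812) read 133, 128 and 108 CPM in young naive and 119.5, 139 and 118 in young injured pools, which overlapped, and 113, 206 and 119.9 and 144, 137 and 151 at middle age. Its log2 fold changes were 0.03 ± 0.19 and -0.02 ± 0.19, and those of Sdhc -0.09 ± 0.12 and -0.04 ± 0.12, with no call. The iron-sulphur subunit Sdhb lay between (-0.28 ± 0.16 and -0.33 ± 0.16, no call). The assembly factor Sdhaf3 fell in young mice, from 13.8, 16.4 and 13.01 CPM to 5.65, 5.81 and 5.57 (-1.34 ± 0.25, adjusted p = 0.000358), and had -0.52 ± 0.25 in middle-aged mice (adjusted p = 0.0875). The difference of its injury effects between ages was not called (0.83 ± 0.35, adjusted p = 0.443). Sdhaf1 was called in middle-aged mice (-1.16 ± 0.29, adjusted p = 0.00323, and -0.67 without pool 2). Most exon bases of Sdhaf1 also overlap another gene on the opposite strand, and the part of this overlap in its call was not tested. Sdhaf2 was called at neither age (-0.09 ± 0.18 and -0.11 ± 0.18).

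In complex III, 3 of 8 genes were lower in young mice, and 4 lower and 1 higher in middle-aged mice. That is 37.5% and 50% lower, against 26.3% and 29.3% of all tested genes, and 12.5% higher in middle-aged mice, against 29.2%. Uqcrh (ENSMUSG00000063882, chromosome 4, 116066965 to 116075071), the hinge subunit that docks cytochrome c, was the second most abundant member per kilobase. It read 491, 471 and 435 CPM in young naive, 253, 278 and 255 in young injured, 482, 859 and 507 in middle-aged naive and 281, 344 and 317 in middle-aged injured pools. All injured pools lay below all naive pools, with changes of -0.83 ± 0.18 (adjusted p = 0.00127) and -0.97 ± 0.18 (adjusted p = 0.000325; -0.65 without pool 2). Uqcr11 fell at both ages (-1.16 ± 0.23 and -0.83 ± 0.23), and the core protein gene Uqcrc1 in middle-aged mice (-0.67 ± 0.19, -0.41 without pool 2, against -0.44 ± 0.19 in young mice, adjusted p = 0.0602). Uqcrb (0.20 ± 0.22 and 0.22 ± 0.22) and Uqcrq (-0.18 ± 0.21 and -0.10 ± 0.21) overlapped between naive and injured pools and passed no test.

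Uqcr10 (ENSMUSG00000059534, chromosome 11, 4701973 to 4704342), a small subunit, was the member called higher in middle-aged mice with the most counts. It read 52.2, 22.03 and 12.6 CPM in young naive, 22.8, 18.7 and 11.8 in middle-aged naive, 13.9, 13.2 and 23.1 in young injured and 27.1, 44.4 and 67.3 in middle-aged injured pools. The middle-aged injured pools lay above the middle-aged naive ones, with a change of 1.38 ± 0.45 (adjusted p = 0.0162), while the young pools overlapped (-0.79 ± 0.45, adjusted p = 0.149). The test of the difference between ages gave 2.18 ± 0.63 (adjusted p = 0.208), so a difference between ages was not shown. The call in middle-aged mice was lost without naive pool 3 (1.16, adjusted p = 0.0655) and without injured pool 3 (1.02, adjusted p = 0.0868). Its pools spread widely within a group, from 12.6 to 52.2 CPM among the young naive pools.

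Complex IV had 7 of 16 genes lower in young mice, and 9 lower and 1 higher in middle-aged mice. That is 43.8% and 56.2% lower, against 26.3% and 29.3% of all tested genes, and 6.25% higher in middle-aged mice, against 29.2%. The 1 higher was Cox6a2, a member only through the injured pools where it is high, so its count is a description. Among the 9 lower was Cox7a1, whose values rested on 1 library. Both are described below. Cox4i1 (ENSMUSG00000031818, chromosome 8, 120668222 to 120674207), the common form of the largest nuclear subunit, was the most abundant member per kilobase. It read 900.5, 933 and 866 CPM in young naive, 373, 457 and 379 in young injured, 1020.3, 2333 and 1068 in middle-aged naive and 454, 482 and 455 in middle-aged injured pools. The highest of the 6 injured pools, at 482 CPM, lay below the lowest of the 6 naive pools. Its log2 fold changes were -1.16 ± 0.24 (fold 0.448, adjusted p = 0.000879) and -1.67 ± 0.24 (fold 0.315, adjusted p = 3.74e-05). Without pool 2, whose 2333 CPM was the highest value of any member in any pool, the change in middle-aged mice was -1.17 (adjusted p = 5.03e-07), next to that in young mice.

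Cox5b, which encodes a zinc-binding subunit, read 109, 124 and 100.4 CPM in young naive, 63.4, 66.1 and 70.03 in young injured, 142, 195 and 141 in middle-aged naive and 77.8, 69.6 and 83.2 in middle-aged injured pools. Injured pools lay below naive pools at both ages (-0.74 ± 0.14 and -1.05 ± 0.14, adjusted p = 0.000476 and 1.97e-05). Cox6c (-0.84 ± 0.13 and -0.89 ± 0.13), Cox6a1 (-0.83 ± 0.24 and -1.12 ± 0.24) and Cox7a2 (-0.68 ± 0.21 and -0.65 ± 0.21) fell at both ages. So did Ndufa4, named for complex I but a subunit of complex IV (-0.76 ± 0.25 and -0.68 ± 0.25). The middle-aged calls of Cox7a2 (-0.30, adjusted p = 0.0839) and Ndufa4 (-0.29, adjusted p = 0.214) were lost without pool 2, and both were also lost without injured pool 1 (-0.61 and -0.68), that of Ndufa4 without injured pool 2 too (-0.59). In young mice the call of Cox7a2 was lost without naive pool 1 (-0.58), and that of Ndufa4 without naive pool 1 or 2 or injured pool 2 or 3 (-0.75 to -0.62). Cox6b1 was called in middle-aged mice alone (-0.64 ± 0.24, adjusted p = 0.0313, against -0.48 ± 0.24, adjusted p = 0.101), with no call for the difference (adjusted p = 0.927). That call was lost without pool 2 (-0.17, adjusted p = 0.262) and without any of the 3 injured pools (-0.69 to -0.59). Cox8a (-0.10 ± 0.23 and -0.12 ± 0.24) and Cox7a2l (0.15 ± 0.19 and -0.33 ± 0.19) passed no test. Cox8a read 7.29, 6.07 and 4.95 CPM in young naive and 6.02, 5.19 and 5.87 in young injured pools, which overlapped.

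ATP synthase had 7 of 17 genes lower in young and 9 in middle-aged mice, with 0 higher. That is 41.2% and 52.9% lower, against 26.3% and 29.3% of all tested genes. The catalytic β subunit gene Atp5b fell with log2 fold changes of -0.38 ± 0.12 and -0.43 ± 0.12, and the central stalk gene Atp5c1 with -0.42 ± 0.14 and -0.45 ± 0.14. Without pool 2 the call of Atp5c1 in middle-aged mice was lost (-0.24, adjusted p = 0.0647). The coupling factor gene Atp5j fell with log2 fold changes of -0.52 ± 0.21 and -0.85 ± 0.21 (-0.50 without pool 2). Its exons overlap those of Gabpa, a gene of an ETS factor on the opposite strand, over 397 bases, and reads there cannot be told apart without strand. Gabpa rose over the same comparison. Atp5s fell at both ages (-0.91 ± 0.23 and -1.12 ± 0.23). Atp5k, weakly expressed, fell in middle-aged mice (-1.18 ± 0.43), a call that was lost without pool 2 (-0.54, adjusted p = 0.217) and without any of the 3 middle-aged injured pools (-1.20 to -1.16). Atp5d (0.03 ± 0.22 and -0.04 ± 0.22) and Atp5e (-0.11 ± 0.16 and 0.09 ± 0.16), both of the central stalk, overlapped between naive and injured pools and passed no test.

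The membrane ring of ATP synthase is built from 1 mature protein made by 3 genes, and only Atp5g1 of these 3 passed the test at either age. Atp5g1 (ENSMUSG00000006057, chromosome 11, 96068852 to 96075670) read 60.3, 57.6 and 43.5 CPM in young naive, 28.3, 31.3 and 30.9 in young injured, 46.7, 89.2 and 52.9 in middle-aged naive and 31.9, 39.6 and 34.4 in middle-aged injured pools. It fell at both ages (-0.84 ± 0.21 and -0.83 ± 0.21, adjusted p = 0.00396 and 0.00364, and -0.49 in middle-aged mice without pool 2), with every injured pool below every naive pool. Atp5g2 (ENSMUSG00000062683, chromosome 15, 102662864 to 102672352), whose promoter is among those shown, read 22.05, 25.5 and 19.1 CPM in young naive, 25.03, 27.6 and 21.01 in young injured, 25.6, 35.6 and 21.4 in middle-aged naive and 29.97, 30.6 and 27.1 in middle-aged injured pools. These overlapped (0.14 ± 0.19 and 0.09 ± 0.19, no call), as did those of Atp5g3 (-0.15 ± 0.20 and -0.17 ± 0.20), the most abundant of the 3. With pool 2 set aside, the middle-aged naive pools of Atp5g2, at 25.6 and 21.4 CPM, lay below all 3 injured pools. Of the exon sequence of Atp5g2, 40.2% is shared with other genes in stretches of 31 bases, so its counts are uncertain.

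**Figure D4:**
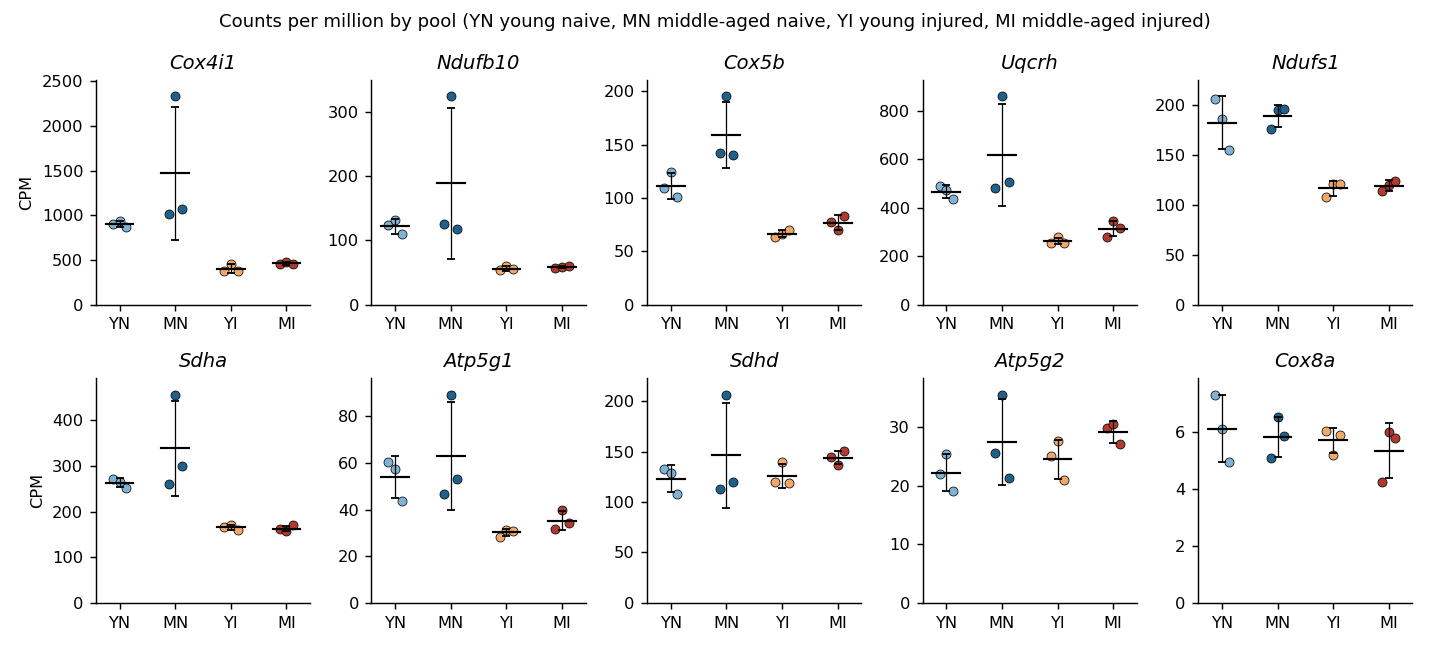
CPM of 10 members in each pool, with group means (lines) and SD (error bars, n = 3). The 7 genes from Cox4i1 to Atp5g1 have every injured pool below every naive pool, while naive and injured pools overlap for Sdhd, Atp5g2 and Cox8a.

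Several subunits exist as tissue-specific isoforms, and the balance within 6 pairs was compared. A 2-sided exact permutation test over pools was used, within age or within injury state (400 arrangements, smallest possible p = 0.005, adjusted over 12 tests). The 12 include the tests of Cox6a2 to Cox6a1, which are not reported, for the reason given below. Without these tests no ratio would have an adjusted p under 0.05. The ratio of Atp5g1 to Atp5g2, on CPM per kilobase, was lower after injury by a log2 difference of -0.93 (exact p = 0.005, adjusted p = 0.03), with -0.97 in young and -0.90 in middle-aged mice and no overlap at either age. With age the same ratio passed no test (-0.07, exact p = 0.545). For Atp5g3 to Atp5g2 the difference after injury was -0.26 (exact p = 0.035, adjusted p = 0.084) and that with age -0.28 (exact p = 0.025, adjusted p = 0.075), neither past the threshold.

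Cox6a2, the heart and skeletal muscle isoform of Cox6a1, was barely present. Summed over pools it had 7 counts in young naive, 35 in young injured, 1 in middle-aged naive and 28 in middle-aged injured mice. The ratio of CPM, injured over naive, was 3.93 in young and 25.1 in middle-aged mice. It is given without an interval, because of how the gene was selected. All 4 of its columns with 10 or more counts were injured pools, so it became a member only through the groups where it is high. Its level and its call in middle-aged mice are therefore a description. Its ratio to Cox6a1 is plotted with no test reported, since the naive level rests largely on the 0.5 added to each count. Its exons overlap those of Itgad by 70 bases on the opposite strand. Itgad had 1 to 17 counts per pool, at 0.09 to 0.62 CPM in injured and 0.10 to 1.54 CPM in naive pools. Its part in the result was not tested.

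Skeletal muscle genes were close to absent in 11 pools and present in pool 1 of the young injured mice, where the 5 markers listed summed to 90.1 CPM, against at most 0.88 CPM in any other pool. Cox6a2 in that pool, at 0.66 CPM, was the lowest of the 3 young injured pools. The Schwann cell markers also summed highest there, at 32.0 CPM. The part of these markers in the result was not tested. Without that pool, 31 members were called lower in young mice, with a median of -0.46. Of all tested genes 46.4% were then called either way, against 54.6% with all pools.

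Cox7a1, the muscle isoform of Cox7a2, rested on 1 library. It read 37.2, 0.944 and 0.96 CPM in middle-aged naive pools, and 0.17 to 0.26 in middle-aged injured, 1.91, 2.18 and 0.645 in young naive and 1.101, 6.36 and 1.43 in young injured pools. Its call in middle-aged mice (-5.81 ± 1.44, adjusted p = 0.00307) was lost without pool 1 of the middle-aged naive mice (log2 fold change -2.05, adjusted p = 0.0698). The same pool held all 12 counts of Cox8b, another muscle isoform, while the skeletal muscle markers there summed to at most 0.88 CPM. For Cox7a1 to Cox7a2 the log2 ratio passed no test for injury (-1.002, exact p = 0.545) or age (-1.10, exact p = 0.415).

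Cox4i2, the lung and low-oxygen isoform of Cox4i1, read 3.28, 2.18 and 8.17 CPM in young naive, 1.73, 1.99 and 2.16 in middle-aged naive, 2.496, 7.13 and 1.88 in young injured and 2.57, 1.12 and 0.863 in middle-aged injured pools. Its log2 ratio to Cox4i1 differed by -1.53 with age, lower in the middle-aged pools (exact p = 0.01, adjusted p = 0.04), with -1.59 in naive and -1.46 in injured mice. That adjusted p would not be under the threshold without the Cox6a2 tests in the adjustment. The ratio was past the threshold no longer when most single pools were left out (-1.70 to -1.24). After injury the ratio differed by 0.96 (exact p = 0.08, adjusted p = 0.137). Cox4i2 is known from pericytes, and the pericyte markers summed to 240 to 312 CPM in young naive and 264 to 391 in middle-aged naive pools, and to 180.1 to 213 in young injured and 132 to 199.9 in middle-aged injured pools. Of the 5 pericyte markers 4 were tested. After injury 2 fell and 1 rose in young mice, and 3 fell and 1 rose in middle-aged mice. Between ages 0 were called in naive or injured mice. Whether these markers bear on the ratio was not tested. Ndufa4l2, a low-oxygen homolog of Ndufa4 at 0.08 to 1.63 CPM, had ratio differences of 0.98 with injury (exact p = 0.07) and -0.67 with age (exact p = 0.305).

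**Figure D5:**
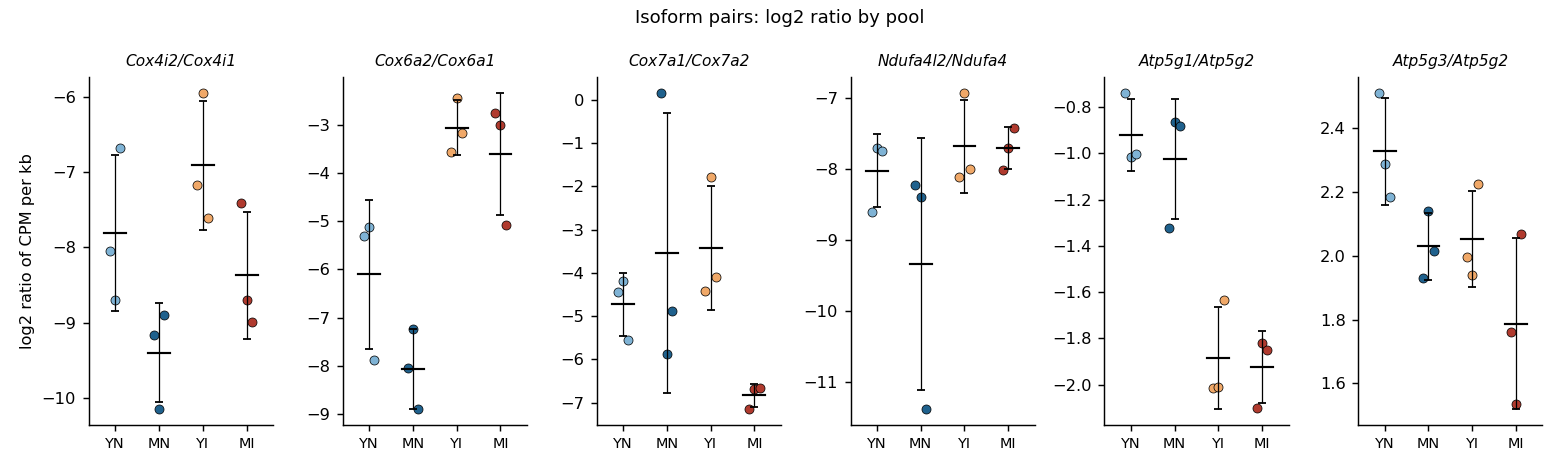
Log2 ratio of CPM per kilobase for 6 isoform pairs in each pool (YN young naive, MN middle-aged naive, YI young injured, MI middle-aged injured), with group means (lines) and SD (error bars, n = 3). For Cox6a2 and Cox6a1 0.5 was added to each count, which largely sets the naive points. For Atp5g1/Atp5g2 all injured pools lie below all naive pools.

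The design also asks whether age changes these genes. In naive mice 0 of 92 members were called between ages, where 2.02% of all tested genes were higher and 1.78% lower (3.8% either way), and 17 members had an unadjusted p under 0.05 against 2910 of 15866 genes. The nearest to a call was Cox5b, higher in middle-aged mice by 0.51 ± 0.14 (adjusted p = 0.0594), with its 3 middle-aged naive pools all above the young ones (7.77% of all genes, and 9.34% with all 3 below). DESeq2's Wald test called 2 members higher, where it called 6.68% of all genes either way. In injured mice 0 were called (0.908% of all genes lower and 1.15% either way) and 3 had an unadjusted p under 0.05 against 1527 of all genes. In the test of whether the injury effect depended on age, 0 members were called (0.0567% of all genes higher, 0.0819% lower and 0.139% either way), and 3 had an unadjusted p under 0.05 against 1574 of all genes. The median log2 fold change with age was 0.11 in naive and 0.06 in injured mice. Without pool 2 the naive median was -0.09, on the other side of 0. A test without a call does not show that the ages are alike.

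Outside the name rule, the other components of respiration were taken from fixed lists. Cyc1 fell at both ages (-0.52 ± 0.16 and -0.44 ± 0.16) and Cycs, cytochrome c, in young mice (-0.51 ± 0.17, against -0.17 ± 0.17 in middle-aged mice, no call). Of 13 subunits of the mitochondrial genome, 11 were tested. In young mice 1 of them was lower, mt-Co1, the catalytic subunit of complex IV (-0.58 ± 0.19, adjusted p = 0.017), and 0 were higher. In middle-aged mice 2 were lower, mt-Co1 (-0.53 ± 0.19) and mt-Nd1 (-0.45 ± 0.19). That is 9.09% and 18.2% lower, smaller shares than the 26.3% and 29.3% of all tested genes. The median of the 11 was -0.41 and -0.42, and mt-Nd5 (0.10 ± 0.24 and -0.09 ± 0.24) stood highest. Counts of some mitochondrial genes were low, with mt-Co2, mt-Co3 and mt-Atp6 at 0.23 to 1.73 CPM in the 12 pools.

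Of 25 tested assembly factors of complexes III, IV and V, 7 were lower and 1 higher in young mice, and 6 lower and 1 higher in middle-aged mice. Of all tested genes 26.3% and 29.3% were lower, near the 28% and 24% of this list. Atpaf1, which assembles ATP synthase, read 59.6, 60.01 and 34.8 CPM in young naive and 21.8, 19.8 and 20.1 in young injured pools, a change of -1.32 ± 0.20 (-1.34 ± 0.20 in middle-aged mice). Coa5 went the other way, from 43.7, 43.4 and 34.8 to 79.9, 79.2 and 87.3 CPM, a change of 1.01 ± 0.17 and 1.27 ± 0.17 (adjusted p = 0.000128 and 1.46e-05), with all injured pools above all naive ones. In the citric acid cycle 8 of 13 genes were lower in young and 7 in middle-aged mice, 61.5% and 53.8% against 26.3% and 29.3% of all tested genes. Sucla2, of succinyl-CoA ligase, had the lowest change (-1.02 ± 0.17 and -1.10 ± 0.17), and Suclg2, which encodes the GTP-linked subunit of the same enzyme, the highest (0.33 ± 0.14 and 0.29 ± 0.14, no call).

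Among 14 regulators of respiration 6 rose and 2 fell at each age, 57.1% either way against 54.6% and 58.5% of all tested genes. Ppargc1a, the coactivator PGC-1α that raises mitochondrial genes, read 49.7, 42.97 and 33.8 CPM in young naive, 11.1, 14.1 and 17.02 in young injured, 35.9, 20.3 and 32.6 in middle-aged naive and 10.9, 10.5 and 11.9 in middle-aged injured pools. Injured pools lay below naive pools at both ages, with changes of -1.58 ± 0.23 (adjusted p = 3.94e-05) and -1.42 ± 0.23 (adjusted p = 0.000107). Of the factors that bind the motifs shown, Gabpa rose by 0.82 ± 0.14 and 0.96 ± 0.14, Gabpb1 by 0.93 ± 0.18 and 0.95 ± 0.18, and Yy1 by 0.44 ± 0.13 and 0.66 ± 0.13, while Nrf1 had 0.44 ± 0.20 and 0.26 ± 0.20 with no call. Hif1a, the oxygen-sensing factor, had the largest rise of the 14, by 1.48 ± 0.11 and 2.04 ± 0.11.

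Of 12 carriers and import proteins of the mitochondrial membranes, 2 were higher and 2 lower in young mice, and 6 higher and 2 lower in middle-aged mice. Either way that is 33.3% and 66.7%, against 54.6% and 58.5% of all tested genes. Slc25a4, the ADP/ATP carrier of muscle and brain, fell with log2 fold changes of -0.83 ± 0.14 and -0.78 ± 0.14. Ucp2, an uncoupling protein common in immune cells, read 8.11, 9.25 and 7.74 CPM in young naive and 83.02, 76.7 and 87.1 in young injured pools, a rise of 3.29 ± 0.32 (2.66 ± 0.31 in middle-aged mice).

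Markers of several cell types moved with the same comparison. All 6 oligodendrocyte markers fell at both ages, and their summed level went from 83480 to 97425 CPM in young naive to 18020 to 20015 CPM in young injured pools, and from 50693 to 58011 CPM to 7630 to 12186 CPM in middle-aged mice. All 6 pan-myeloid markers rose, from 71.8 to 102 CPM to 1373 to 1394 CPM in young mice and from 109.7 to 147 CPM to 1461 to 1950 CPM in middle-aged mice. Of 6 neuron markers 4 fell in young and 5 in middle-aged mice, with Slc17a6 higher in the latter, and the sums went from 1458 to 3720 CPM to 486 to 729 CPM in young mice and from 2226 to 2873 CPM to 583 to 675 CPM in middle-aged mice. Of 4 astrocyte markers 3 fell at each age, and all 3 fibroblast markers rose. In bulk tissue fewer cells of a type and less RNA per cell cannot be told apart. The part of this shift in the fall of the respiratory chain genes was not tested. In young naive mice, pool 3 had the lowest neuron marker sum, 1458 CPM, and the lowest summed level of respiratory chain subunits, 88.8% of the group mean. Pool 2 of the middle-aged naive mice had the highest subunit level, 177% of the young naive mean. No middle-aged naive pool had a neuron marker sum above 2873 CPM, which is within the young naive range. Whether the 2 levels go together was not tested.

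What the members share apart from their names was described from the annotation. They lie on 19 chromosomes, with at most 8 on 1 of them. Their merged exons are short, with a median of 1737 bases against 4233 for all tested genes with a position, and a GC content of 49.9% against 49.2%. Across the 92 members the change after injury had a Spearman rho of 0.00 with exon length and -0.03 with GC content in young mice, and 0.00 and -0.11 in middle-aged mice. Of 92 members, 27 share no stretch of 31 bases with another gene, 22 share more than 10% of their sequence, and 35 overlap another gene's exons, so how the shared reads were counted bears on them.

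A promoter window of 300 bases was matched for 76 of 92 members, 81 windows in all. The NRF1 motif was found, on either strand, in 8.64% of these windows against 0.971% of all windows, the YY1 motif in 12.3% against 2.75%, and the ETS motif in 6.17% against 3.89%. At least 1 of the 3 stood in 27.2% against 7.32%. No member held more than 1 of the 3 motifs. Among the members with a motif 9 of 22 were lower after injury at both ages, and among those without one 20 of 54. The median log2 fold change was -0.52 with and -0.50 without a motif in young mice, and -0.69 and -0.56 in middle-aged mice. A match is a description of letters and not a bound site.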

How the data were processed

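The authors extracted RNA from laser-captured cryosections, amplified it with a REPLI-g kit and sequenced it on a NextSeq500. Per the labels and the study's methods, reads were checked with FastQC 0.11.4, aligned to the mouse genome (GRCm38) with TopHat2 2.0.10 and Bowtie 1.1.2 and counted per gene with featureCounts. The strand setting and the handling of reads that map to several places are not given in the sources used here. The deposited table holds raw counts per gene, with 9834447 to 12807437 counts per pool, so that 3 counts equal 0.22 to 0.32 CPM. Such a limit covers counting error only. Ages and the time after injury come from the study's methods and labels.

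Counts were tested with edgeR 4.0.16 in R 4.3.3 (quasi-likelihood test, TMM factors, filterByExpr, 15866 genes tested). All 12 pools were fitted with 1 coefficient per group, without a replicate block, and p-values were adjusted by Benjamini-Hochberg over all tested genes in each of 5 comparisons, with a threshold of 0.05. The study's methods used pairwise DESeq2, which was run as an alternative (DESeq2 1.42.0), beside other scalings, filters, offsets, a replicate block and leaving out each pool. The fit was tested on simulated data. Pools are separate samples of 5 mice each, and p-values measure the spread between pools. Positions are from GENCODE M21, promoters from RefSeq. Levels between genes were compared per kilobase of transcript.

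Members, lists and tests were chosen with earlier results of these data known. Genes named were, in each class, the 3 members with the highest and the 3 with the lowest mean injury change (2 and 2 in classes under 8 members), all isoform pairs, members called in an age comparison, members below the count limit and the extremes of each pathway list. Other members were named after their values were seen. A result on a single member is not reported here.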

Additional observations from a re-analysis of the deposited data

How the results depend on the processing

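Each of the 44 named genes was recomputed at both ages under 23 settings. Apart from leaving out pools, 861 gene values kept their direction and side of the threshold, 54 passed it newly, 11 lost it and 38 changed sign. Leaving out pools gave 982, 17, 28 and 29. The median change of the members minus that of all genes stayed between -0.59 and -0.49 in young and between -0.62 and -0.48 in middle-aged mice under the other settings, and between -0.60 and -0.44 and between -0.61 and -0.35 without single pools.

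In young mice 25 members were lower and 1 higher with library totals alone, 75 lower with offsets for transcript GC content and length, and 74 with the replicate block and these offsets. Of all tested genes 54.3%, 58.6% and 58.1% were called either way. The median of all tested genes in young mice moved too, from 0.00 to 0.20 with library totals and to -0.26 with the offsets. The median of the members minus that of all genes was -0.50, -0.49 and -0.58. In middle-aged mice 1 was higher with only the pools compared and 1 with the block and offsets, where Uqcr10 lost its call (1.16, adjusted p = 0.0522). Of all tested genes 53.2% and 60.6% were called either way. With age in naive mice 1 was higher with upper-quartile factors, 1 with library totals, 8 with no filter and 2 with DESeq2. Of all tested genes 3.81%, 3.65%, 4.24% and 6.68% were called either way. In injured mice 1 was higher and 1 lower with no filter (1.61% of all tested genes either way), as with only the pools compared (5.44%). For the difference between ages 1 was higher and 1 lower with no filter (1.21%). The causes were not tested. Without single pools, 28 to 54 members were lower and 0 to 1 higher in young mice, 39 to 58 lower and 1 to 4 higher in middle-aged mice, 0 to 3 higher with age in naive mice and 0 to 1 lower with age in injured mice. After injury 46.4% to 59.6% of all tested genes were then called in young and 50.8% to 59.3% in middle-aged mice, either way.

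Same-numbered pools were not paired: of 18 pairs 2 had a correlation of deviations over 0.1 (-0.11 to 0.15). With the replicate block alone 44 members were lower and 1 higher in young, and 50 lower and 2 higher in middle-aged mice. Of all tested genes 54.1% and 57.7% were called either way.

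The log2 fold changes that changed sign were of genes not called at that age. The median of all tested genes was 0.20 in young and 0.08 in middle-aged mice with library totals alone, and -0.26 and -0.23 with GC and length offsets. With library totals alone the log2 fold changes in young mice were Atp5e 0.0857, Ndufab1 0.0309, Ndufa7 0.16, Ndufs3 0.00013, Sdhaf2 0.11, Sdhc 0.10, Uqcrq 0.0170, Cox8a 0.10 and Atp5g3 0.0491, and in middle-aged mice Atp5d 0.0751, Ndufaf4 0.0918, Sdhc 0.0747, Sdhd 0.10 and Uqcrq 0.0182. With GC and length offsets, and in brackets with the block too, they were in young mice Atp5d -0.15 (-0.15), Sdhd -0.38 (-0.38), Uqcrb -0.29 (-0.28) and Cox7a2l -0.27 (-0.26), and in middle-aged mice Atp5e -0.23 (-0.22), Ndufa7 -0.14 (-0.16), Ndufs3 -0.26 (-0.25) and Uqcrb -0.26 (-0.23). Upper-quartile factors gave Atp5d -0.0221 and Sdhd -0.0138 in young and Ndufs3 -0.0349 in middle-aged mice. In middle-aged mice Ndufaf4 was 0.0027 with DESeq2's size factors, 0.0019 with no filter and 0.0071 with DESeq2, and Sdhd was 0.0013 with DESeq2 and 0.0179 with the replicate block. Without single pools the ranges in middle-aged mice were Atp5d -0.19 to 0.24, Atp5e -0.0178 to 0.29, Atp5g2 -0.0624 to 0.32, Atp5g3 -0.33 to 0.14, Cox7a2l -0.49 to 0.0235, Cox8a -0.22 to 0.0243, Ndufa1 -0.31 to 0.12, Ndufa4l2 -0.23 to 1.05, Ndufaf4 -0.13 to 0.15, Ndufs3 -0.14 to 0.13, Sdhaf2 -0.26 to 0.0915, Sdhc -0.0895 to 0.0319, Sdhd -0.18 to 0.31 and Uqcrq -0.28 to 0.0939. In young mice they were Atp5d -0.0296 to 0.0740, Cox4i2 -1.04 to 0.49, Cox7a1 -0.32 to 1.28, Cox8a -0.23 to 0.0474, Ndufa7 -0.18 to 0.17 and Sdhd -0.0497 to 0.0938. The Atp5g1 to Atp5g2 ratio with age ranged from -0.11 to 0.0041.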
